A study of Homo sapiens with 2 samples.

Results

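In the list of nucleosome positions deposited for interphase ARPE-19 cells, 1944 of the 1378197 bins of 2 kb on chromosomes 1-22 (0.141%) held 12 or more distinct positions, more than the 11 that fit side by side at the nucleosome repeat length on which the limit rests. These are called crowded bins here, and they were chosen by the number of listed positions alone. Each chromosome was cut into 2-kb bins from its first base, and the 1378197 bins are those with at least 1000 determined bases. The number of positions in a crowded bin and the distances between them are given as a description, with no test.

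ARPE-19 is a human cell line established from the pigment epithelium of the retina. The labels name 2 samples of the same normally cultured interphase cells, batches 1 and 2, so there is 1 group and no control arm. Micrococcal nuclease cut the DNA between nucleosomes for 5 min at 37 °C, and fragments of about 150 bp were sequenced. The deposited list does not tell the batches apart and gives each position as 1 base with no height or score. No spread between batches and no depth behind a position could therefore be given, and every value below comes from this 1 list.

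A nucleosome core holds slightly less than 150 bp of DNA wrapped around histones, and a stretch of linker DNA separates it from the next core. Positions closer together than a core cannot be occupied on the same DNA molecule at the same time, although different cells, or both copies of a chromosome, can carry nucleosomes at overlapping places. Satellite DNA is made of short units repeated in tandem around centromeres, and segmental duplications are long stretches that occur more than once in the genome, often near centromeres and chromosome ends. In both kinds of sequence a short read can match several places.

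Stretches of 200 bases that hold many positions show how different the sequence of crowded bins was (hg38, plus strand). The first comes from the bin with the most positions in the genome, chr16:46390001-46392000. It lies outside any GENCODE 44 gene at chr16:46390931-46391130 and held 9 positions, and capitals mark the 5-base unit GGAAT or its reverse complement ATTCC, a unit of human satellite DNA. In the others each capital is a called position. The window at chr9:40926011-40926210 (5 positions, no gene) comes from the densest bin of chromosome 9. The window at chr15:77741151-77741350 (4 positions) lies in an intron of LINGO1, and that at chr6:297313-297512 (5 positions) in an intron of DUSP22.
chromosome 16, satellite: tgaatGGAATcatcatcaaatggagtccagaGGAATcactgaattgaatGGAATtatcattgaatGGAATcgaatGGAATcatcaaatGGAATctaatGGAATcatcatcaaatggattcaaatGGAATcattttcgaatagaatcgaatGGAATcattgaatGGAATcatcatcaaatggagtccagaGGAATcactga
chromosome 9: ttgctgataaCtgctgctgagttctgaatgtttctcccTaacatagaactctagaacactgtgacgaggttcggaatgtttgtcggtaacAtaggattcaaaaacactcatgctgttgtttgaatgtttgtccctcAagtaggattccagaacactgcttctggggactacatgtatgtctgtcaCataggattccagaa
LINGO1 intron: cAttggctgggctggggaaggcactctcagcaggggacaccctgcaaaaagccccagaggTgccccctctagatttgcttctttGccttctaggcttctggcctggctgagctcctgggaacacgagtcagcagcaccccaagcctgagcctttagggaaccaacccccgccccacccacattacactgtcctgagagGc
DUSP22 intron: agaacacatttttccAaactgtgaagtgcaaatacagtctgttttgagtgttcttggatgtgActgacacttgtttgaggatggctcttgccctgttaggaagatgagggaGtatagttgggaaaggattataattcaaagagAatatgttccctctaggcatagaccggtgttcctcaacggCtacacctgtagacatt

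The first window holds the satellite unit 11 times, so its densest calls lie on tandem repeats. The LINGO1 and DUSP22 windows lie inside protein-coding genes.

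The crowded bins held 30516 positions, 1.193% of those in all bins. Their median was 14 and their maximum 52. Positions averaged 7.85 per kb in crowded bins and 0.928 per kb over all bins. Most bins were sparse, with no position in 373953 bins (27.1%), 1 to 7 in 986245 (71.6%) and 8 to 11 in 16055. Among the crowded bins, 901 held 12 or 13 positions, 506 held 14 to 17 and 537 held 18 or more. The number of bins fell with each further position up to 71 bins with 17, and then rose to 95 bins with 18 and 94 with 19.

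**Figure D1:**
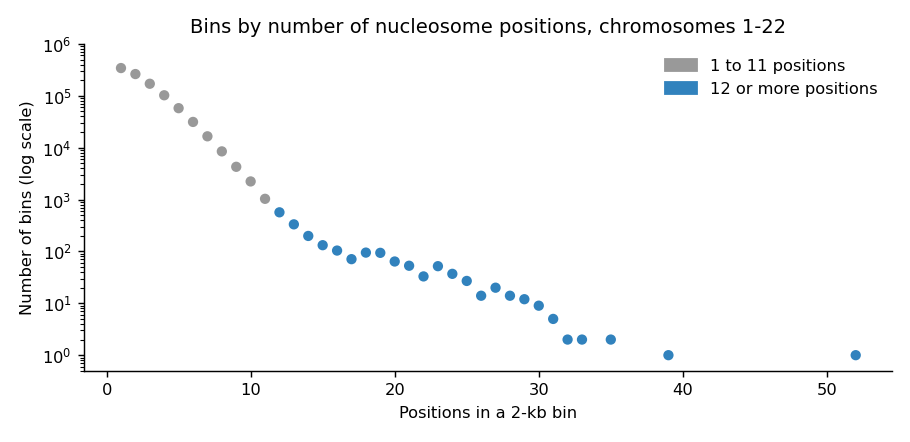
Number of 2-kb bins on chromosomes 1-22 (log scale) against the number of positions they held, from 1 position upwards. Crowded bins, with 12 or more, are in blue; they run from 12 to 52 positions, with a shoulder at 18 and 19.

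Bins just inside and just outside the limit had similar GC content and touched protein-coding genes about as often, but differed in other features. The 568 bins with 12 positions had a median GC content of 50.65% and the 1034 bins with 11 had 51.0%. Protein-coding genes were touched by 49.65% and 49.71% of them. Bins within 5 Mb of the centromere made up 16.73% of the bins with 12 positions and 11.99% of those with 11. Pseudogenes were touched by 7.042% and 4.255%. More than 50% of the 36-base words occurred more than once in the reference in 14.96% and 10.06%.

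Base composition and repetition, which the rule did not use, changed with the number of positions. The median GC content was 39.8% over all bins, 49.25% in bins with 8 to 11 positions, 50.05% with 12 or 13, 44.77% with 14 to 17 and 41.45% with 18 or more. Repetition was measured as the share of a bin's 36-base words that occur more than once in the reference on either strand. Its median was 6.35% over all bins, 1.85% with 8 to 11 positions, 3.3% with 12 or 13, 55.8% with 14 to 17 and 65.1% with 18 or more. Bins with 12 or 13 positions were therefore GC-rich and mostly unique by this measure, and the densest bins had a GC content near that of the genome and mostly repeated words. The measure counts exact copies within the reference, and does not see diverged copies or copies missing from it. With words of 100 bases, more than 50% were repeated in 23.1% of crowded bins, 36.87% of bins with 18 or more and 4.416% of all bins. How often a place can be read uniquely moves with this measure, and its part in the number of positions was not tested.

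Crowded bins were spread very unevenly over chromosomes. Chromosome 15 held 285, chromosome 1 held 216, chromosome 16 held 162, chromosome 9 held 159 and chromosome 21 held 139. As a share of each chromosome's bins, chromosome 21 (0.693%) and chromosome 15 (0.673%) stood highest, and chromosomes 13 (0.00408%) and 20 (0.00625%), with 2 crowded bins each, stood lowest. The chromosomes also differed in the kind of bin. On chromosome 15, 203 of the 285 held 12 or 13 positions and 13 held 18 or more. On chromosome 1, 64 held 12 or 13 and 109 held 18 or more. On chromosome 3, which had 27, none held more than 14.

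**Figure D2:**
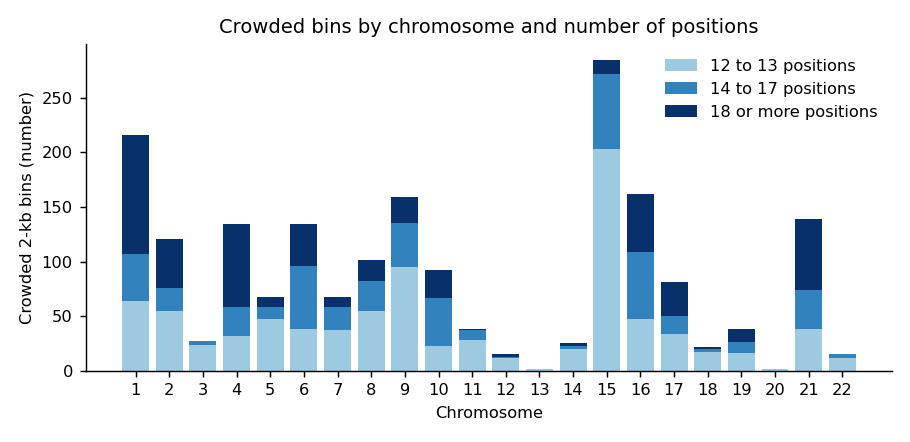
Crowded 2-kb bins per chromosome, stacked by number of positions. The bar of chromosome 15 (285 bins) is mostly bins with 12 or 13 positions, and that of chromosome 1 (216 bins) mostly bins with 18 or more.

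Chromosomes 9 and 15 together held 444 crowded bins (22.84%, 95% Wilson interval 21.03 to 24.76%) and 7.489% of all bins. They held 33.07% of the bins with 12 or 13 positions, 21.54% of those with 14 to 17 and 6.89% of those with 18 or more. They also held 25.3% of the bins with 8 to 11, so the excess on these chromosomes lay in bins with 8 to 17 positions. On chromosome 15 from 49 Mb to the end, a boundary chosen with the data in view, 219 of 26466 bins were crowded (0.827%). Of these, 178 held 12 or 13 positions, and in 217 fewer than 10% of 100-base words were repeated. The 66 crowded bins before that boundary had a median of 14 positions. The Wilson intervals here and below cover counting error only, and neighbouring bins are not independent.

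Nearness to the centromere was measured from the longest block of 100-kb windows rich in the 17-base CENP-B box, the binding site of a centromere protein. Within 5 Mb of that block lay 732 crowded bins (37.65%, interval 35.53 to 39.83%), and 8.662% of all bins. The share rose with density, from 21.86% of bins with 12 or 13 positions to 50.79% with 14 to 17 and 51.77% with 18 or more. Inside the block itself lay 58 crowded bins (2.984%), and 2.012% of all bins. CENP-B box cores were found in 46 crowded bins (2.366%) and in 2.013% of all bins. Most bins inside the block held no position at all, 27172 of 27724 (98%), and 38.8% of the bins outside it within 5 Mb. Among bins with any position, 58 of 552 inside the block were crowded (10.5%), 674 of 56064 outside it within 5 Mb (1.2%) and 1212 of 947628 farther away (0.128%). As a share of all bins the order of the first pair was the other way round, with 0.209% inside, 0.735% within 5 Mb and 0.0963% farther away. The bins farther away include the one with the most positions, on chromosome 16, which lay 8.091 Mb from the block. They also include the cluster chr9:62798001-62882000, which lay 17.2 Mb from it.

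Some chromosome ends held many crowded bins. Within 5 Mb of an end lay 314 crowded bins (16.15%, interval 14.58 to 17.85%) and 7.0% of all bins, and within 1 Mb 8.848% and 1.352%. Of the 172 crowded bins within 1 Mb, 139 lay in 4 large clusters, on chromosomes 4 (at both ends), 5 and 6, and only 14 of 44 chromosome ends had a crowded bin that near. Within 1 Mb the share was 4.107% of bins with 12 or 13 positions and 16.2% of bins with 18 or more. Bins with 8 to 11 positions reached 13.42% within 5 Mb and 2.118% within 1 Mb. Gaps of the reference, meaning runs of 100 or more undetermined bases, lay within 100 kb of 12.76% of crowded bins, 19.93% of bins with 18 or more and 1.962% of all bins.

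Crowded bins clustered. With bins under 100 kb apart joined, they formed 562 clusters, of which 29 had 10 or more bins and held 1006 (51.7%). Another 379 bins (19.5%) stood alone. A crowded bin lay directly beside 1135 of them (58.4%), and the 1961 other bins beside crowded bins held a median of 6 positions (quartiles 4 and 8), where all bins had a median of 1 (0 and 3).

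Lone bins and bins of large clusters stood apart in composition and in place. Lone bins had a median of 12 positions, a GC content of 52.2% and 0.55% repeated 36-base words. They touched a protein-coding gene in 53.3% of cases and lay within 5 Mb of the centromere in 8.71%. Bins of large clusters had a median of 17 positions, a GC content of 42.9% and 62.98% repeated words. They touched a protein-coding gene in 18.6% of cases and lay near the centromere in 59.8%. Bins of clusters of 2 to 9 lay between, with 13 positions, 49.75%, 7.8%, 43.8% and 17.4%.

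The 10 densest bins, with ties taken in genome order, lay in 3 places. The tenth rank, 31 positions, was shared by 5 bins, of which chr4:56001-58000, chr9:63824001-63826000 and chr16:46394001-46396000 are not among the 10. The first was a satellite stretch on chromosome 16, with 52 positions at chr16:46390001-46392000, 39 at chr16:46398001-46400000 and 32 at chr16:46400001-46402000. The satellite unit shown above covered 23.75%, 24.5% and 23.25% of these bins. No gene touches them, and the nearest protein-coding gene is SHCBP1, whose product binds the signalling adaptor SHC, 186590 bp from the densest bin. A stretch of undetermined bases lies 10.32 kb from that bin.

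The second place was chromosome 2 beside the centromere, with 35 positions at chr2:91630001-91632000, 33 at chr2:91602001-91604000, 32 at chr2:91612001-91614000, 31 at chr2:91632001-91634000 and 31 at chr2:91572001-91574000. All but the last lie in introns of LSP1P5, which GENCODE 44 lists as a long non-coding RNA. The bins chr2:91602001-91604000 and chr2:91612001-91614000 also touch an exon of a pseudogene. The nearest protein-coding gene, RPIA, an enzyme of the pentose phosphate pathway, is 2821071 bp away from chr2:91572001-91574000. The third was chromosome 9, with 35 positions at chr9:40926001-40928000 and 33 at chr9:40924001-40926000, outside any gene and 198434 bp from FOXD4L6, a forkhead gene, for the denser. Here 9.45% and 9.9% of 36-base words were repeated and none of the 100-base words. The satellite unit covered 8.5% and 8.0% of these bins. Exact words miss diverged copies, and in the chromosome 9 window shown above gaatgttt recurs with similar bases around it. These bins thus had few exact repeats, and diverged tandem repeats were not measured.

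The satellite unit GGAAT or ATTCC covered 10% or more of 59 crowded bins (3.035%, interval 2.36 to 3.895%), and of 0.07844% of all bins. The same class made up 2.442% of bins with 12 or 13 positions and 3.724% of those with 18 or more. Bins rich in this unit were thus far more frequent among crowded bins than elsewhere, and yet nearly all crowded bins fell below the 10% cut. Diverged copies of the unit and other satellite units were not counted in this cover. The share of crowded bins in satellite sequence of any kind is therefore not known here. A cluster on chromosome 2, chr2:89812001-89852000, had the largest median cover of the clusters of 10 or more, 40.22% over 14 crowded bins.

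The longest of the unbroken runs of crowded bins, chr1:148792001-148898000, had 53 bins in a row with 1085 positions. It lies largely over PDE4DIP, which starts at chr1:148808140 and encodes myomegalin, an anchor protein of the Golgi and centrosome. A run of 33 bins with 638 positions at chr21:10414001-10480000 lies 41552 bp from TPTE, a testis gene for a membrane phosphatase. A run of 31 bins with 817 positions at chr2:91572001-91634000 holds the chromosome 2 bins above. Runs of 30 bins with 486 positions at chr16:33564001-33624000 and of 29 bins with 585 positions at chr4:189702001-189760000 were nearest to TP53TG3F, at 101751 bp, and to FRG1, at 180869 bp. The chromosome 4 run lay 0.4556 Mb from the chromosome end. In 3 of these 5 runs more than 50% of 100-base words were repeated, with medians of 90.95% on chromosome 1, 65.9% on chromosome 2 and 95% on chromosome 16. The runs on chromosomes 21 and 4 had medians of 10.95% and 11.25%.

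Other clusters of 10 or more, described after their values were seen, lay in similar surroundings. On chromosome 6, chr6:60352001-60608000 had 76 crowded bins of 128, with a median of 16.5 positions, over the pseudogene PRIM2BP and 0.453 Mb from the centromere block. The cluster chr4:189618001-189764000, around the chromosome 4 run, had 68 crowded bins of 73. On chromosome 15, chr15:20238001-20422000 had 50 of 92 and lay 0.439 Mb from the centromere block, 109855 bp from GOLGA6L6, a golgin family gene. On chromosome 19, chr19:27240001-27400000 had 25 of 80, of which 3 lay inside the centromere block and the others up to 99 kb from it. Away from centromeres, chr8:12538001-12598000 had 26 of 30, and chr4:3488001-3634000 had 22 of 73, with a median GC content of 56.75%. Clusters thus ranged from nearly solid blocks to loose groups such as that around LINGO1, where 13.2% of the bins were crowded.

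Many of these blocks have a copy elsewhere in the reference. For 517 crowded bins (26.6%), another bin not beside them shared 500 or more of its 100-base words, out of at most 2000. The share was 11.9% of bins with 12 or 13 positions, 34.8% with 14 to 17 and 43.6% with 18 or more, but 2.29% of bins with 8 to 11 and 0.58% of bins with 1 to 7. The best match lay on chromosomes 1-22 or X for 317 bins, on the same chromosome for 281 of these, and on unplaced sequence or chromosome Y for the other 200. Positions at those 200 matches were not counted.

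On chromosomes 1-22 and X the matching bin was almost always empty. Of the 317 matches on chromosomes 1-22 or X, 305 (96.2%) held no position, and only 2 were crowded themselves, while the crowded bins of these pairs had a median of 16 positions. The bins matching those with 8 to 11 positions were empty in 216 of 234 cases (92.3%), and those matching bins with 1 to 7 in 3883 of 5146 (75.5%). Bins with at least 500 repeated 100-base words were empty in general: 82.7% of the 81624 such bins held no position, and 601 (0.736%) were crowded. In these pairs positions were thus listed at one copy far more often than at both.

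Pairs of 200 bases from such copies show how alike they were (hg38; capitals mark the bases that differ, 2 in each pair). Each pair was found in the crowded bin of its chromosome with most positions whose match on the same chromosome gave an ungapped stretch of this length with 2 to 8 differences. The first crowded stretch, chr1:148888997-148889196, lies in an intron of PDE4DIP and held 3 positions, in a bin of 26. Its copy, chr1:149241074-149241273, read on the minus strand, lies in introns of a long non-coding RNA and a pseudogene and held 0, in a bin of 0.
PDE4DIP, crowded copy: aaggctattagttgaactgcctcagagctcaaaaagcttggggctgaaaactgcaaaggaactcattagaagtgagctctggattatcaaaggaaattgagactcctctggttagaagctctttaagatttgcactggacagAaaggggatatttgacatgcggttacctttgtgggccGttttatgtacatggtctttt
chromosome 1, other copy: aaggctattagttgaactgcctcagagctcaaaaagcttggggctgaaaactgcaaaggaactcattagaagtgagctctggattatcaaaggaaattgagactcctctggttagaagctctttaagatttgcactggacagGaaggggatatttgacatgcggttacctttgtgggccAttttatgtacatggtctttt

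The second crowded stretch, chr10:46424656-46424855, lies in an intron of the long non-coding RNA LINC00842 and held 4 positions, in a bin of 21. Its copy, chr10:47959806-47960005, read on the minus strand in an intron of another long non-coding RNA, held 0, in a bin of 0.
LINC00842, crowded copy: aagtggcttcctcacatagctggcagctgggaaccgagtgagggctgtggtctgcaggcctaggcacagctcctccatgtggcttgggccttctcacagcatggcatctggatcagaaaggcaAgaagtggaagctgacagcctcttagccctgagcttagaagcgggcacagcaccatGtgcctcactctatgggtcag
chromosome 10, other copy: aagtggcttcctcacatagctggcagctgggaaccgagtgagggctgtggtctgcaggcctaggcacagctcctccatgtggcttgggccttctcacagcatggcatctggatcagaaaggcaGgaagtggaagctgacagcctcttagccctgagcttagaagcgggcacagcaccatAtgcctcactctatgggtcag

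In each pair the differing bases were 2 of 200, and the positions stood on one copy alone. Whole blocks showed the same pattern. On chromosome 1 the block chr1:148770001-149032000 had 81 crowded bins, all with a match, of which 63 lay at chr1:149232001-149360000, and all 81 matches were empty. On chromosome 10 the block chr10:46410001-46586000 had 65 crowded bins, 48 with a match at chr10:47756001-47974000, all empty. On chromosome 8 all 28 crowded bins of chr8:2250001-2338000 matched empty bins at chr8:2384001-2472000. On chromosome 2 all 27 matches of the block chr2:91572001-91644000 were empty, and on chromosome 17 all 10 of chr17:21296001-21438000. Other blocks had matches on unplaced sequence, where positions were not counted, so whether these copies were empty is not known here. None of the 24 crowded bins found on unplaced or alternate sequences lay on the sequences matched by the blocks named next. The blocks chr16:33546001-33830000 and chr16:32472001-32636000 matched an unplaced chromosome 16 sequence in 59 of 63 and 44 of 45 crowded bins. The block chr4:28001-68000, near a chromosome end, matched an unplaced sequence in 17 of 17. Whether reads were assigned to one of several matching places is not given in the sources used here, and its part in these counts was not tested.

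**Figure D3:**
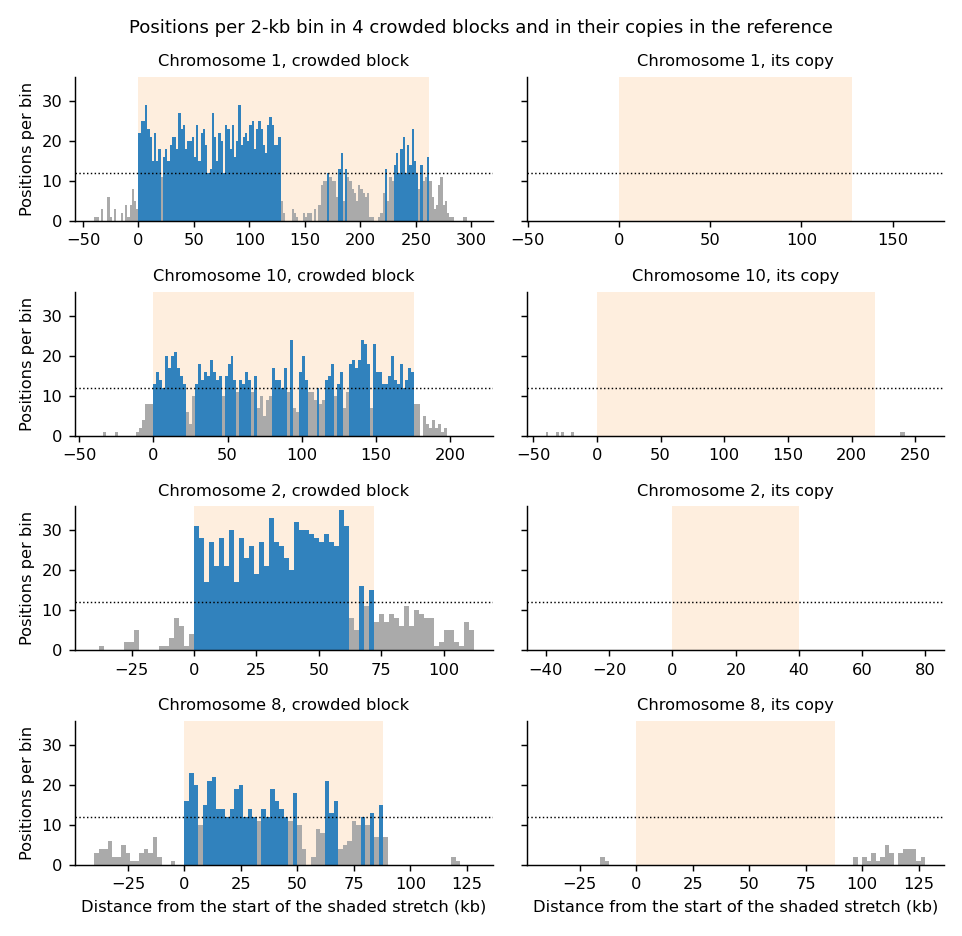
Positions per 2-kb bin in crowded blocks on chromosomes 1, 10, 2 and 8 (left) and at their main matching stretch on the same chromosome (right), against distance from the start of the shaded stretch, with 40 kb on either side. Blue bars are crowded bins, grey bars other bins and the dotted line the limit of 12; the shaded stretches on the right are empty of bars.

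A pair on chromosome 5 was the exception. The bin chr5:34186001-34188000 held 16 positions and its match chr5:21486001-21488000 held 12, with 933 shared 100-base words, so both were crowded. Beside them, chr5:34188001-34190000 held 15 and its match chr5:21484001-21486000 held 8. This pair was named after its values were seen, as one of the 12 matches on chromosomes that were not empty.

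The order of rows in the list set part of the crowded bins apart. The list runs upwards along the chromosome in most bins, but downwards in 305 crowded bins (15.7%). The share was 7.21% of bins with 12 or 13 positions, 17.4% with 14 to 17 and 28.3% with 18 or more, but 0.137% of bins with 2 to 7 and 1.02% of bins with 8 to 11. All 109 crowded bins of chr21:10326001-10814000 and all 81 of the chromosome 1 block that lies largely over PDE4DIP ran downwards. So did all 11 of chr7:62126001-62158000, all 11 of chr10:41840001-41886000 and 55 of 65 in the other large chromosome 10 block. Clusters of 10 or more held 267 of the 305. In the densest bin of the genome on chromosome 16 the rows came from 9 separate stretches of the list. The number of positions moved with the order of rows, and the part of this order in the counts was not tested. Whether coordinates were converted from another genome build before deposit is not given in the sources used here. If they were, positions from more than one place of that build could share a bin, and the counts, copies and distances above would not be those of the cells' own sequence.

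Inside crowded bins, neighbouring positions stood a median of 90 bp apart over 28572 distances (quartiles 49 and 170), which follows in part from how the bins were chosen. In bins with 8 to 11 positions the median was 178 bp (77 and 261). It was 143 bp with 12 or 13 positions, 98 bp with 14 to 17 and 69 bp with 18 or more. Distances under 100 bp made up 53.62% in crowded bins, 69.83% with 18 or more and 28.19% with 8 to 11. Most distances in crowded bins, 67.86%, were shorter than a nucleosome core.

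The distances did not fill all lengths evenly. They peaked at 40 bp in crowded bins and at 33 bp in bins with 8 to 11 positions, and distances under 20 bp were rare in both (0.7525% and 0.8781%). Above 100 bp a second peak stood at 174 bp in crowded bins and at 183 bp in bins with 8 to 11. Distances from 60 to 100 bp rose from 6.667% with 8 to 11 positions to 11.21% with 12 or 13, 19.79% with 14 to 17 and 29.13% with 18 or more. Distances from the length of a core up to 210 bp, the range of a nucleosome with its linker, fell from 31% to 29.93%, 21.95% and 10.74%. Over all pairs of positions in a bin, the peak near a nucleosome repeat was at 176 bp in crowded bins, 1.86 times the trough before it, and at 183 bp and 5.19 times with 8 to 11. This peak was thus present in crowded bins and flatter than in less filled ones. At longer distances crowded bins had peaks at 340 to 350 bp (2606 pairs) and 370 to 380 bp (2571). Further peaks included 510 to 520 bp (2231), 540 to 550 bp (2103), 680 to 690 bp (1836), 740 to 750 bp (1731) and 850 to 860 bp (1579). Bins with 8 to 11 positions peaked at 370 to 380 bp (8043), 560 to 570 bp (6222), 750 to 760 bp (4778) and 930 to 940 bp (3766). Whether the peaks in crowded bins reflect nucleosome spacing or the unit length of tandem repeats was not tested.

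**Figure D4:**
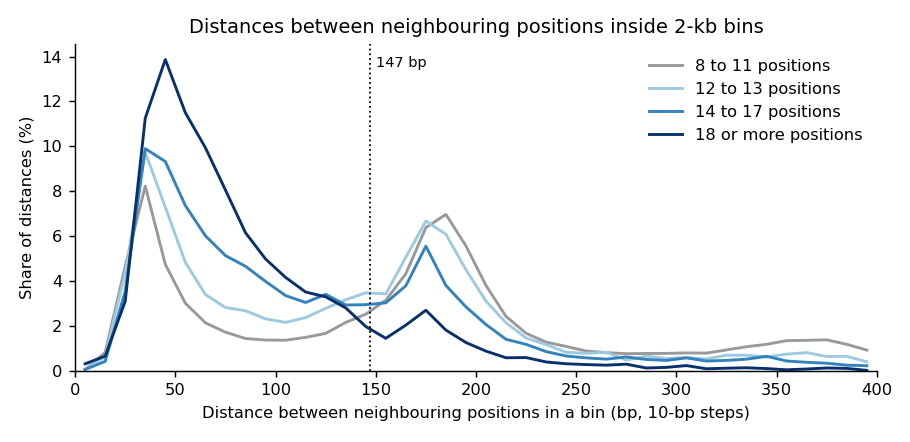
Share of distances between neighbouring positions inside 2-kb bins, in steps of 10 bp, for bins with 8 to 11, 12 to 13, 14 to 17 and 18 or more positions. The dotted line marks the length of a core; the peak near 174 bp shrinks and the short distances grow as bins hold more positions.

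Nucleosomes that do not overlap could occupy only part of the positions. With a core at each position, the largest set that fits together had a median of 9 per crowded bin, from 5 to 12, and left a median of 6 positions over. With 8 to 11 positions the set had a median of 6 and left 2. In bins with 18 or more it reached 10 and left 11. Only 28 crowded bins (1.44%) could hold 12 at once. At least 3 positions stood within 1 core length somewhere in 1543 crowded bins (79.4%), in 62.3% of those with 12 or 13 and in 27% of bins with 8 to 11. The most was 8 positions within a core length, in the chromosome 16 satellite. Joining positions closer than 100 bp into 1 left only 6 bins with 12 or more.

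**Figure D5:**
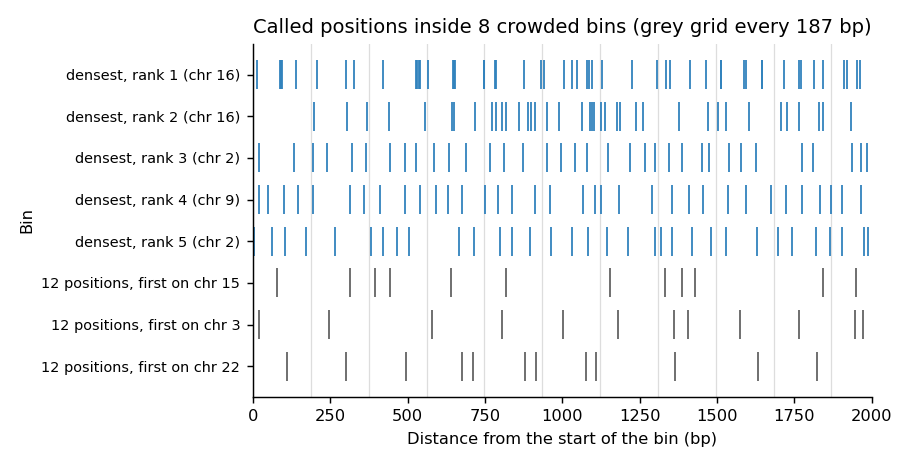
Each tick is a called position, by distance from the start of its 2-kb bin, in the 5 densest bins (blue) and in the first bin with 12 positions on chromosomes 15, 3 and 22 (dark grey); the grid has the repeat length on which the limit rests. The chromosome 16 bins hold tight groups of ticks, and the others on chromosomes 2 and 9 hold ticks spread along the whole bin.

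The distances can also be set out by repetition. In the 1141 crowded bins with under 10% repeated 100-base words, of which 432 still had 10% or more repeated 36-base words, the median distance was 113 bp, 46.29% of distances were under 100 bp and the sets that fit had a median of 8. In the 449 bins with more than 50% repeated, the values were 79 bp, 60.39% and 9. Both sets were chosen for 12 or more positions, which makes short distances frequent, so nothing is read from these values about repetition.

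Protein-coding genes were touched by 634 crowded bins (32.61%, interval 30.57 to 34.73%) and by 46.27% of all bins. The share was 45.73% with 12 or 13 positions and 20.3% with 18 or more. Exons of such genes were touched by 14.97% of crowded bins and 14.42% of all. Long non-coding RNA genes were touched by 25.26% and 20.05%, and pseudogenes by 13.94% and 2.648%. No gene at all was touched by 40.48% and 36.48%. The denser the bins, the more they lay over pseudogenes, from 8.102% with 12 or 13 positions to 20.48% with 18 or more.

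Counted by gene, 349 of 19111 protein-coding genes (1.83%), 1.02% of 18390 long non-coding RNA genes and 75 of 13942 pseudogenes (0.538%) were touched by a crowded bin. Over all genes the share was 1.06%. A longer gene covers more bins, and gene length was not taken into account, so these shares do not compare the classes. PDE4DIP (chr1:148808140-149048286) had by far the most among protein-coding genes, 63 of its 121 bins, 26 of them with an exon. NBPF1 (chr1:16562319-16613562), of the neuroblastoma breakpoint family, had 14 of 26, and ZNF595 (chr4:53286-88208), a zinc finger gene near a chromosome end, 8 of 19. In the crowded bins of these genes medians of 84.45%, 59.8% and 82.05% of the 100-base words were repeated. ZDHHC11B (chr5:710355-784729), of the palmitoyltransferase family, had 12 with 9.25% repeated, and KCNJ12 (chr17:21376357-21419870), an inward rectifier potassium channel, 9 with 20.3%. PRIM2 (chr6:57314805-57646850), the large subunit of DNA primase, had 8 with 19.12%. The pseudogene PRIM2BP, on the other side of the same centromere region, had 62 crowded bins.

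The remaining 4 of the 10 genes with the most crowded bins had a median of 0 repeated 100-base words. DUSP22 (chr6:291630-351355), a dual-specificity phosphatase gene near the end of chromosome 6, had 22 of its 31 bins crowded, with 416 positions or 6.97 per kb over the gene and up to 20 in a bin. GPRIN2 (chr10:46541736-46556658), linked to neurite outgrowth, had 7 of 9 and 9.38 per kb. It lies within the chromosome 10 block, where 48 of 65 crowded bins had an empty match. The crowded bins of GPRIN2 also had a median of 0 repeated 36-base words. KMT2C, MAP2K3 and KANSL1 also had 7 crowded bins, with fewer positions. LINGO1 (chr15:77613027-77820900), a neuronal membrane protein gene, had 13 of 105 and 4.29 per kb, and none of its crowded bins touched an exon. CCDC33 (chr15:74202705-74336472), a coiled-coil protein gene, had 13 of 68 and 4.06 per kb. Over all bins the density was 0.928 per kb. In LINGO1 and CCDC33 the densest bins held 18 and 15 positions, and crowding was thus milder and more scattered than in DUSP22.

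Start sites were not a common place of crowding. Within 1 kb of a protein-coding start site lay 43 crowded bins (2.21%), from 37 genes, and 2.55% of all bins. Among the densest of these were bins at ZNF595 (28 and 23 positions), at NBPF1 (24 and 19), at PDE4DIP (22 and 20) and at GPRIN2 (18). Bins with 14 positions lay at ASIC4, an acid-sensing ion channel, at NPY4R, a neuropeptide receptor, at ODF3 and SCGB1C1, which share a bin, and at SYT15, of the synaptotagmin family. Bins with 13 lay at CPLX3, EPHB6, KLHL35, LGI3, PROM2 and RHEX, the last in a pair of adjacent bins. The bins at ASIC4, CPLX3, EPHB6, KLHL35 and LGI3 had 0% repeated 36-base words, and those at ZNF595 and PDE4DIP more than 90%.

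Gene families known for copies in tandem or in segmental duplications were touched about as rarely as genes in general. Of 21 families listed by symbol, 7 had a touched gene, 13 had none and 1 had no gene of that symbol. Together 16 of their 2006 genes (0.798%) were touched, and 1.06% of all genes. Without olfactory receptors and zinc finger genes, which make up most of these families, it was 7 of 568 (1.23%). The NBPF family had 2 of 23, NBPF1 and NBPF10, with 17 crowded bins. Zinc finger genes had 8 of 585 with 16 crowded bins, 8 of which were at ZNF595. Mucin genes had 2 of 20, MUC3A and MUC20. Olfactory receptor symbols had 1 of 853, which was the overlapping transcript OR4M2-OT1. None was touched among 14 POTE genes, 24 NPIP genes, 21 TBC1D3 genes, 30 USP17L genes, 30 PRAMEF genes or 70 protocadherin genes. The list was chosen with earlier results of these data known, and a family whose copies hold few listed positions could not reach 12.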

How the data were processed

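MNase-seq was done on 2 batches of interphase ARPE-19 cells. Per the submitters' processing notes, reads were aligned with Bowtie2 to hg38 (GRCh38). The authors deposited 1 list of 1-base intervals, read here as positions with no score. The caller, the threshold, the treatment of reads with several matches, any conversion of coordinates from another build and any pooling of the batches are not given in the sources used here. The list had 2634347 rows, of which 4 were repeats and were dropped, and 2558490 positions lay on chromosomes 1-22.

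Bins of 2 kb with 12 or more positions were taken. Their members and the gene families were chosen with earlier results of these data known. Named are the 10 densest bins, the 5 longest runs, the 10 protein-coding genes with the most crowded bins and up to 20 crowded bins within 1 kb of a start site. One such bin and one pair of sequences are not reported here. Sequences and word repetition came from hg38 (chromosomes, unplaced sequences, both strands) and genes from GENCODE 44. No test was run, since the list has no replicates. Functions were checked on simulated data. Tools were Python 3.11.15, numpy 2.4.6, pandas 2.3.3, numba 0.67.0, pysam 0.24.0 and matplotlib 3.10.9. Alternatives changed the bin size, bin start, minimum, merging, distance limits, chromosomes and word length.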

Additional observations from a re-analysis of the deposited data

Results flagged for a closer look

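Bins with 12 or more positions also occurred outside chromosomes 1-22, in numbers over 3, the most that a count of 0 would leave possible. Chromosome X had 9 such bins among 77448 (0.0116%), the fullest with 19 positions, and 7 of them lay within 5 Mb of the centromere. Unplaced or alternate sequences had 24, of which 12 lay on an unplaced sequence of chromosome 4, with up to 32 positions in a bin. Another 11 lay on a sequence of no known chromosome and 1 on an alternate sequence of chromosome 7. These sequences were not part of the comparison.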

How the results depend on the processing

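Of 87 values recomputed for the 9 results, 32 stayed within the 95% interval of the reported value (for the number of bins, within 1.5 times) and 55 moved past it. With 14 or more positions 1043 bins remained, 51.29% near a centromere and 21.28% touching a protein-coding gene, with a median distance of 76 bp, 62.27% of distances under 100 bp, a GC content of 43.1% and 61.0% repeated 36-base words. With 16 or more there were 712 bins, 53.51%, 20.08%, 71 bp, 66.98%, 42.02% and 64.1%, with 18.4% near a chromosome end and a set of 10 that fits. Bins of 1 kb with 6 or more gave 13419 bins, 14.72% near a centromere, 14.32% near an end, 43.0% touching a gene, 119 bp, 45.51%, a set of 4, a GC content of 49.5% and 0.3% repeated. Bins of 5 kb with 28 or more gave 533 bins, 55.16%, 21.39% touching a gene, 83 bp, 57.5%, a set of 21, 43.04% and 61.64%. Joining positions under 100 bp apart left 6 bins, with 83.33% near a centromere, 0% near an end, 16.67% touching a gene, 172.5 bp, 0% under 100 bp, a set of 11, 36% GC and 12.15% repeated; fewer positions remain by construction. Without chromosomes 9 and 15 the values were 43.2%, 17.87% near an end, 30.07%, 85 bp, 55.84%, 45.12% and 49.62%. Bins shifted by 1 kb gave 54.31% under 100 bp, and 1400 of these 1908 bins overlapped a crowded bin. Limits of 2 Mb gave 24.07% near a centromere and 9.928% near an end, any CENP-B window 39.92%, exons alone 14.97%, and 100-base words 2.875% repeated. Apart from the construction of each setting, the cause was not tested.

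The number of crowded bins and the features of a typical one thus depend on the bin size and minimum. No paired analysis was possible because the list does not tell the batches apart. Depth is unknown, so a bin with few positions cannot be told from one with few reads.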
